A study of Mus musculus with 15 samples.

Results

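The genes described here are 44 that code for lysosomal enzymes, lysosomal membrane proteins and regulators of the lysosome, measured in mouse olfactory bulbs. They were found by the gene name the array files give to each probe, and a gene with several probes was represented by the brightest one that passed the detection filter (13 genes had several). All 44 of the listed genes were found and tested, among 23439 genes tested in all, and each was well above background on all 15 arrays. By role they comprise 9 cysteine proteases, 3 other proteases, 11 glycosidases, 5 sulfatases, 8 enzymes and proteins of lipid handling, 6 membrane proteins, and 2 regulators, Grn and Tfeb.

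Bulb RNA came from 15 male mice aged 6 to 8 weeks, 5 in each of 3 groups, and was hybridised to 1-colour Agilent arrays. All mice had received 500 nL of a Cre-dependent adeno-associated virus (AAV) 2 weeks before RNA was taken. The active CRHR1 group was CRHR1-Cre mice, strain C57Bl/6, injected with AAV-flex-(CA)CRHR1, which codes for a constitutively active form of CRHR1, a receptor for corticotropin-releasing hormone (CRH). The knockout group was CRHR1-/- mice, strain 129S4/SvJae, injected with the control virus AAV-flex-EGFP (AAV-flex GFP in the sample titles). The Cre GFP group was CRHR1-Cre mice, strain C57Bl/6, injected with AAV-flex-GFP, and served as the control for both. The sample descriptions place the Cre-dependent cargo in CRHR1-positive granule cells, the inhibitory interneurons of the bulb, whereas the RNA is of the whole bulb. The labels name no Cre in the knockout mice. Wherever knockout bulbs are compared with others, receptor loss, strain and the absence of a named Cre cannot be told apart.

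Lysosomes are acidic compartments in which hydrolases break down proteins, glycans and lipids delivered by endocytosis, phagocytosis and autophagy. Cathepsins and legumain cut proteins, glycosidases and sulfatases dismantle glycans, and lipases, ceramidases and their activator proteins dismantle lipids, while a proton pump in the membrane keeps the interior acidic. In the brain every cell has lysosomes, and microglia, the resident phagocytes, are known for high levels of several cathepsins. TFEB is a transcription factor known to raise many lysosomal genes at once through an E-box motif in their promoters.

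Levels are log2 signals relative to the 75th percentile of the array, and a level can be compared between arrays for 1 gene but not between genes. Changes are differences of group means ± SE from limma, a linear model. In it each gene's spread, pooled over the 3 groups, is moderated with information from all genes. A gene is called where its Benjamini-Hochberg adjusted p over all genes is under 0.05. The 75th percentile of the signal ran between 663 and 1172 over the arrays, and 58.8% to 66.9% of probes were well above background. The number of arrays limits the precision. All 5 active CRHR1 arrays were on slide 2 beside Cre GFP arrays 4 and 5, and all 5 knockout arrays were on slide 1 beside Cre GFP arrays 1 to 3. With slide as a fixed block, each comparison with Cre GFP rests on the arrays of 1 slide, and that between active CRHR1 and knockout runs through the Cre GFP arrays alone. Knockout array 5 stood apart, and not only in these genes. It had the lowest 75th percentile, 663, and the lowest share of probes well above background, 58.8%, of all 15 arrays. Among knockout arrays its summed signals of granule cell, neuronal and astrocyte markers, 620, 279 and 158, were the highest. Its neutrophil and B cell sums, 3.13 and 0.289, were the lowest. It was the highest of the 5 knockout arrays for 26 of the 44 genes and the lowest for 10. The shares over all genes were not computed. On it, Sgsh (a sulfatase of heparan sulfate breakdown) had a level of 5.72 against 3.19 to 3.85 on the other 4 knockout arrays, and Idua (the iduronidase of the same pathway) had 1.52 against 3.20 to 3.91. The bulb was recognisable in every group: all 10 granule cell, 6 mitral and tufted cell and 6 general neuronal markers were above background on at least 1 array of each group. Crhr1, the targeted gene, had levels of 3.73 ± 0.12 in active CRHR1, 3.16 ± 0.12 in knockout and 3.63 ± 0.18 in Cre GFP bulbs (SD, n = 5 each). It fell by 0.47 ± 0.09 in the knockout (limma, adjusted p = 0.0118). Whether its probe lies within the deleted part, or within the sequence the virus carries, is not known here.

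In active CRHR1 bulbs a subset of the lysosomal genes rose, while 32 of the 44 were not called and lay between -0.21 and 0.30. The subset was led by the cysteine cathepsin genes Ctsc, 3.38-fold higher, Ctss, 2.73-fold higher, and Ctsz, 1.84-fold higher, followed by the phagocyte membrane glycoprotein gene Cd68, 1.66-fold higher, and the progranulin gene Grn, 1.60-fold higher. Structural membrane proteins such as Lamp1 and Lamp2, the calcium channel Mcoln1, the transcription factor Tfeb and most glycan and lipid hydrolases were not called. Of the 44 genes, 12 were called against 10.6% of all genes, 11 of them higher (4.55% of all genes) and 1, Ids, lower (6.07% of all genes). The median change was 0.03 over the 44 genes and -0.07 over all genes tested. With arrays centred on their median the median over the 44 genes was -0.07 and that over all genes -0.17. The authors' scaled values, in which 40 of the 44 genes could be tested, gave -0.08 and -0.17. The sign of the median was thus not settled, while it stayed above that of all genes. On 10 genes every active CRHR1 array lay above every Cre GFP array, and on 1 gene below, against 3.52% and 7.81% of all genes, or 11.3% in either direction.

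Slide and scaling bear on the number of calls. With slide as a block 7 genes remained called, namely Ctsc, Ctss, Ctsz, Ctsd, Gusb, Cd68 and Grn, against 4.52% of all genes. Among the slide 2 arrays alone, 5 against 2, only Ctss passed, while 12 of the 44 had an unadjusted p under 0.05. Centring arrays on their median left 5 calls, all higher. The authors' scaled values left 6 among the 40 genes tested there, of which 5 were higher. Over all genes 1067 were called higher and 1422 lower, and with median centring 657 higher and 418 lower.

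**Figure D1:**
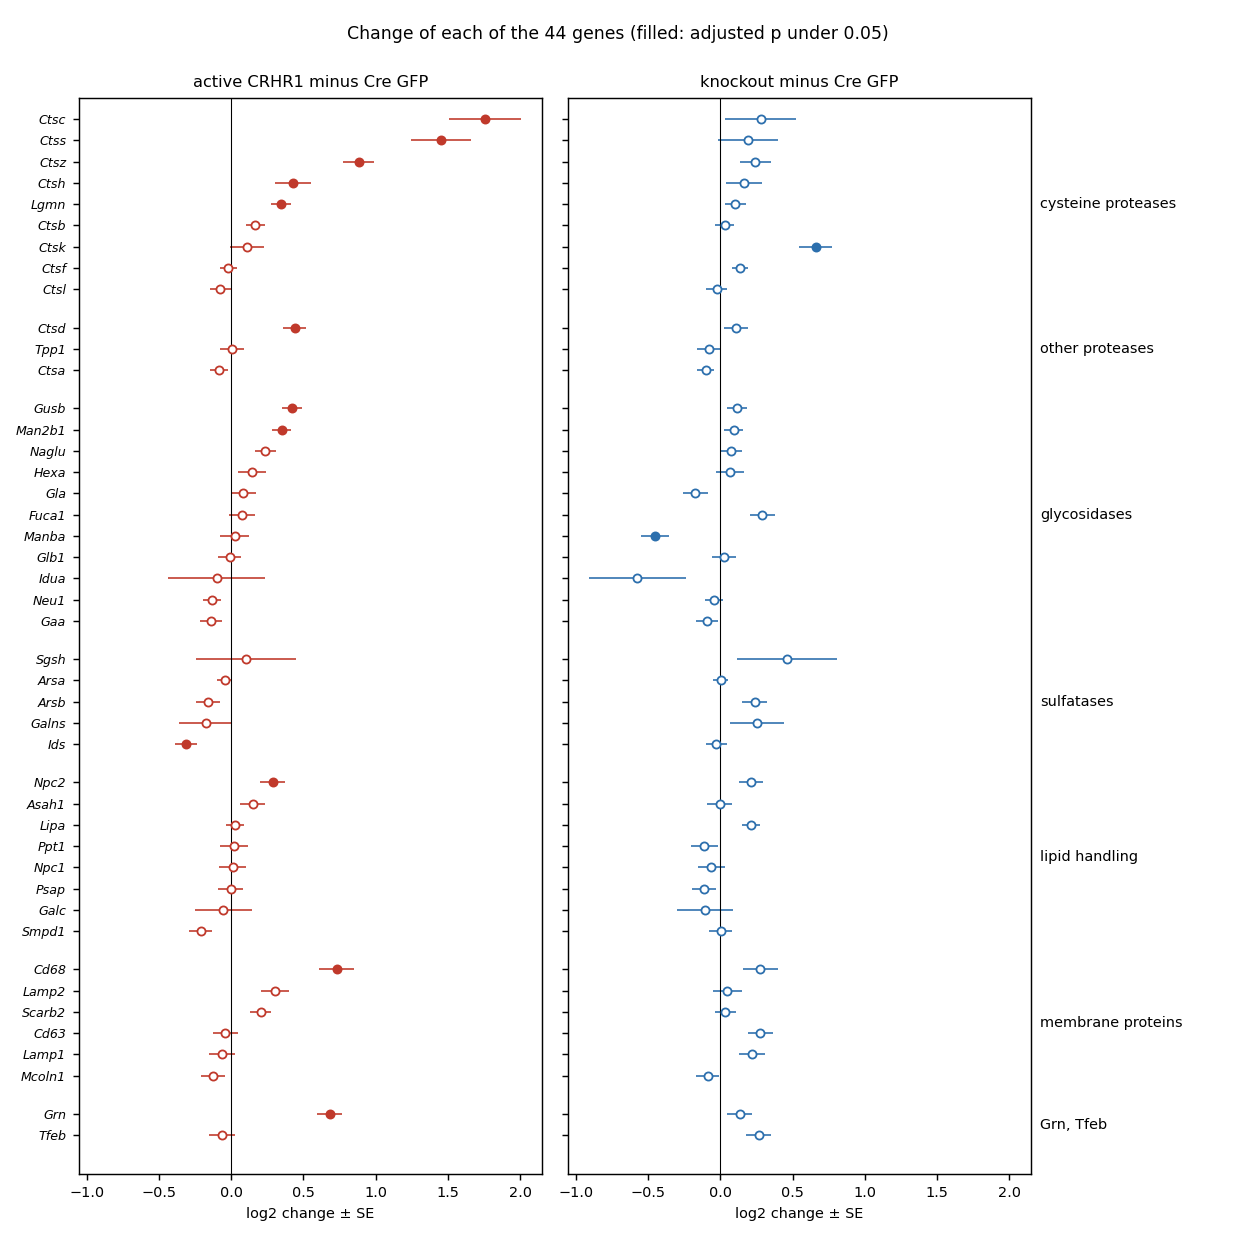
Log2 change ± SE of each of the 44 genes in active CRHR1 (left) and knockout (right) against Cre GFP bulbs, 5 arrays per group, ordered by role. Filled points passed the adjusted p threshold; 12 did in the left panel, led by Ctsc at 1.76, and 2 in the right panel, Ctsk at 0.66 and Manba at -0.45.

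Among the cysteine proteases 5 of 9 rose. Ctsc codes for cathepsin C, which activates granule serine proteases of immune cells. Its levels were 1.72, -0.06, 0.98, 1.07 and 1.47 in active CRHR1 bulbs, -0.51, -0.44, -0.08, -0.70 and -0.47 in knockout bulbs, and -0.71, -0.69, -0.65, -0.64 and -0.92 in Cre GFP bulbs. All 5 active CRHR1 arrays lay above every knockout and Cre GFP array, and array 2 lay far below the other 4 of its group. The change was 1.76 ± 0.25 (adjusted p = 0.000658; probe on chromosome 7, 95458436 to 95458495, mm9) and a second Ctsc probe, well above background on only 4 active CRHR1, 2 knockout and 2 Cre GFP arrays, gave 1.36. Ctss codes for cathepsin S, which processes the invariant chain of MHC class II in antigen-presenting cells. It had levels of 4.96, 4.25, 4.77, 5.03 and 5.25 in active CRHR1, 3.27, 3.27, 3.92, 3.42 and 4.08 in knockout, and 3.50, 3.86, 3.09, 3.22 and 3.35 in Cre GFP bulbs. Again no active CRHR1 array overlapped with the other groups, and array 2 was the lowest of the group. Ctss rose by 1.45 ± 0.21 (adjusted p = 0.000762; chromosome 3, 95360245 to 95360304, mm9) and passed the threshold under all 29 alternatives.

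Ctsz codes for cathepsin Z, a carboxypeptidase also called cathepsin X. In active CRHR1 bulbs its levels were 4.74, 4.13, 4.36, 4.58 and 4.55, in knockout bulbs 3.77, 3.69, 3.79, 3.82 and 4.10, and in Cre GFP bulbs 3.57, 3.73, 3.49, 3.49 and 3.67. The active CRHR1 arrays again stood above all others, though array 2 exceeded knockout array 5 only narrowly. The change was 0.88 ± 0.11 (adjusted p = 0.000286; chromosome 2, 174253228 to 174253287, mm9). The other 2 rises were smaller. Lgmn codes for legumain, the asparaginyl endopeptidase that matures several cathepsins, and had levels of 5.35, 5.11, 5.26, 5.32 and 5.34 in active CRHR1, 4.94, 5.00, 4.91, 5.06 and 5.26 in knockout, and 4.92, 5.02, 4.85, 4.90 and 4.97 in Cre GFP bulbs. It rose by 0.35 ± 0.07 (adjusted p = 0.00836, and 0.0667 under the slide block). All its active CRHR1 arrays lay above all Cre GFP arrays. All but array 2 also lay above knockout array 5, array 3 only narrowly. Ctsh, the aminopeptidase cathepsin H, had levels of 3.80, 3.18, 3.53, 3.60 and 3.88 in active CRHR1, 3.19, 3.15, 3.56, 3.29 and 3.51 in knockout, and 3.14, 3.35, 3.02, 3.16 and 3.19 in Cre GFP bulbs. Active CRHR1 array 2 lay within the Cre GFP range and arrays 2 and 3 within the knockout range, and the call of 0.43 ± 0.12 (adjusted p = 0.0418) gave an adjusted p of 0.154 under the slide block and was lost in 16 of 29 alternatives. The 4 cysteine proteases that were not called, Ctsb, Ctsf, Ctsk and Ctsl, had changes of -0.07 to 0.17. Ctsk and Ctss have probes 47.1 kb apart on chromosome 3 (mm9), and Ctsk had a change of 0.11 (adjusted p = 0.552) where Ctss rose.

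Of the 3 other proteases only the aspartic protease gene Ctsd, cathepsin D, was called. Its levels were 5.76, 5.74, 5.53, 5.88 and 5.84 in active CRHR1 bulbs, 5.36, 5.31, 5.35, 5.45 and 5.65 in knockout bulbs, and 5.35, 5.43, 5.20, 5.20 and 5.38 in Cre GFP bulbs. Every active CRHR1 array lay above every Cre GFP array, and knockout array 5 fell among the active CRHR1 arrays. Ctsd rose by 0.44 ± 0.08 (adjusted p = 0.00456; 0.0371 under the slide block), and a second probe gave 0.49. Tpp1, the tripeptidyl peptidase lost in a neuronal ceroid lipofuscinosis, had a change of 0.01, and Ctsa, the protective protein of neuraminidase and beta-galactosidase, one of -0.08.

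Of the 11 glycosidases, Gusb and Man2b1 rose. Gusb codes for beta-glucuronidase and had levels of 1.28, 1.09, 1.15, 1.28 and 1.23 in active CRHR1, 0.76, 0.80, 0.97, 0.91 and 1.08 in knockout, and 0.88, 0.78, 0.68, 0.77 and 0.82 in Cre GFP bulbs. The active CRHR1 arrays were above all others, and the change was 0.42 ± 0.07 (adjusted p = 0.00163). A second Gusb probe gave -0.03, and with the mean over probes the change was 0.19 and no longer passed. Man2b1, the alpha-mannosidase of glycoprotein breakdown, had levels of 2.98, 3.00, 3.12, 3.20 and 3.15 in active CRHR1, 2.76, 2.77, 2.80, 2.89 and 2.96 in knockout, and 2.74, 2.84, 2.59, 2.73 and 2.82 in Cre GFP bulbs. It also separated the active CRHR1 arrays from all others, with a change of 0.35 ± 0.07 (adjusted p = 0.00482) that missed the threshold with slide as a block (adjusted p = 0.0638). The other 9 glycosidases, among them Hexa, Gla, Gaa, Glb1 and Neu1, whose loss causes storage diseases, had changes of -0.14 to 0.24. Naglu, at 0.24, came closest to the threshold (adjusted p = 0.0546). Probes of Gaa, acid alpha-glucosidase, disagreed: the brightest gave -0.14 and the others -0.13 and 0.59.

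Of the 5 sulfatases 1 fell, and of the 8 lipid-handling genes 1 rose. Ids codes for iduronate-2-sulfatase, which removes sulfate from heparan and dermatan sulfate. It had levels of 1.54, 1.72, 1.50, 1.58 and 1.62 in active CRHR1, 1.75, 1.90, 1.79, 1.87 and 2.07 in knockout, and 1.74, 2.03, 1.86, 1.88 and 2.00 in Cre GFP bulbs. All active CRHR1 arrays were below all others, though only just, and Ids fell by 0.31 ± 0.07 (adjusted p = 0.0171; 0.0633 under the slide block). The other 4 sulfatase genes had changes of -0.18 to 0.10. Npc2, the soluble cholesterol carrier, was the lipid-handling gene that was called. Its levels were 3.08, 2.70, 2.93, 3.10 and 3.10 in active CRHR1, 2.86, 2.86, 2.80, 2.95 and 3.06 in knockout, and 2.62, 2.78, 2.61, 2.62 and 2.85 in Cre GFP bulbs. The groups overlapped, and the rise of 0.29 ± 0.09 (adjusted p = 0.0481) gave an adjusted p of 0.213 under the slide block and was lost in 20 of 29 alternatives. Npc1, the membrane partner of Npc2, had a change of 0.01, and Psap, the precursor of the saposin activators, one of less than 0.01 in size. Smpd1, acid sphingomyelinase, had the lowest change of the group at -0.21 (adjusted p = 0.106).

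Of the 6 membrane proteins only Cd68 was called. In active CRHR1 bulbs it had levels of 2.60, 2.08, 2.04, 2.37 and 2.29, in knockout bulbs 1.76, 1.77, 1.83, 1.75 and 2.02, and in Cre GFP bulbs 1.88, 1.65, 1.34, 1.43 and 1.43. The active CRHR1 arrays were the highest throughout, and the change was 0.73 ± 0.12 (adjusted p = 0.00167), with 1.05 from a second probe. Lamp1 and Lamp2 make up much of the lysosomal membrane protein. Lamp1 had levels of 6.50, 6.47, 6.59, 6.67 and 6.62 in active CRHR1, 6.73, 6.76, 6.74, 6.90 and 7.13 in knockout, and 6.48, 6.72, 6.59, 6.53 and 6.84 in Cre GFP bulbs. The active CRHR1 and Cre GFP arrays overlapped, and the change of -0.06 ± 0.09 (adjusted p = 0.674) turned to 0.06 under quantile normalization. The change was 0.30 ± 0.10 in Lamp2 (adjusted p = 0.0665), 0.21 in Scarb2, the receptor that carries glucocerebrosidase to lysosomes (adjusted p = 0.0808), and -0.04 in the tetraspanin Cd63. Mcoln1, the lysosomal calcium channel, had levels of 3.82, 4.01, 3.99, 3.83 and 3.87 in active CRHR1, 3.72, 3.92, 3.88, 4.01 and 4.20 in knockout, and 4.14, 4.00, 3.95, 3.99 and 4.06 in Cre GFP bulbs. Its groups overlapped, and the change was -0.13 (adjusted p = 0.311), while a second probe gave 0.35.

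Of the 2 regulators Grn rose and Tfeb was not called. Grn codes for progranulin, a secreted glycoprotein that is cut into granulins in lysosomes. Its levels were 4.09, 3.67, 3.77, 3.94 and 4.10 in active CRHR1, 3.30, 3.29, 3.30, 3.39 and 3.56 in knockout, and 3.23, 3.23, 3.23, 3.19 and 3.28 in Cre GFP bulbs. The 3 groups did not overlap in this gene: active CRHR1 arrays were highest, and knockout arrays lay narrowly above Cre GFP arrays. The rise in active CRHR1 was 0.68 ± 0.09 (adjusted p = 0.000303; 0.0058 under the slide block; chromosome 11, 102297692 to 102297751, mm9). Tfeb had levels of -1.29, -1.37, -1.22, -1.15 and -1.01 in active CRHR1, -0.74, -0.96, -1.09, -0.93 and -0.68 in knockout, and -1.04, -1.19, -1.29, -1.12 and -1.08 in Cre GFP bulbs. Its active CRHR1 and Cre GFP arrays overlapped, with a change of -0.07 ± 0.09 (adjusted p = 0.654).

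**Figure D2:**
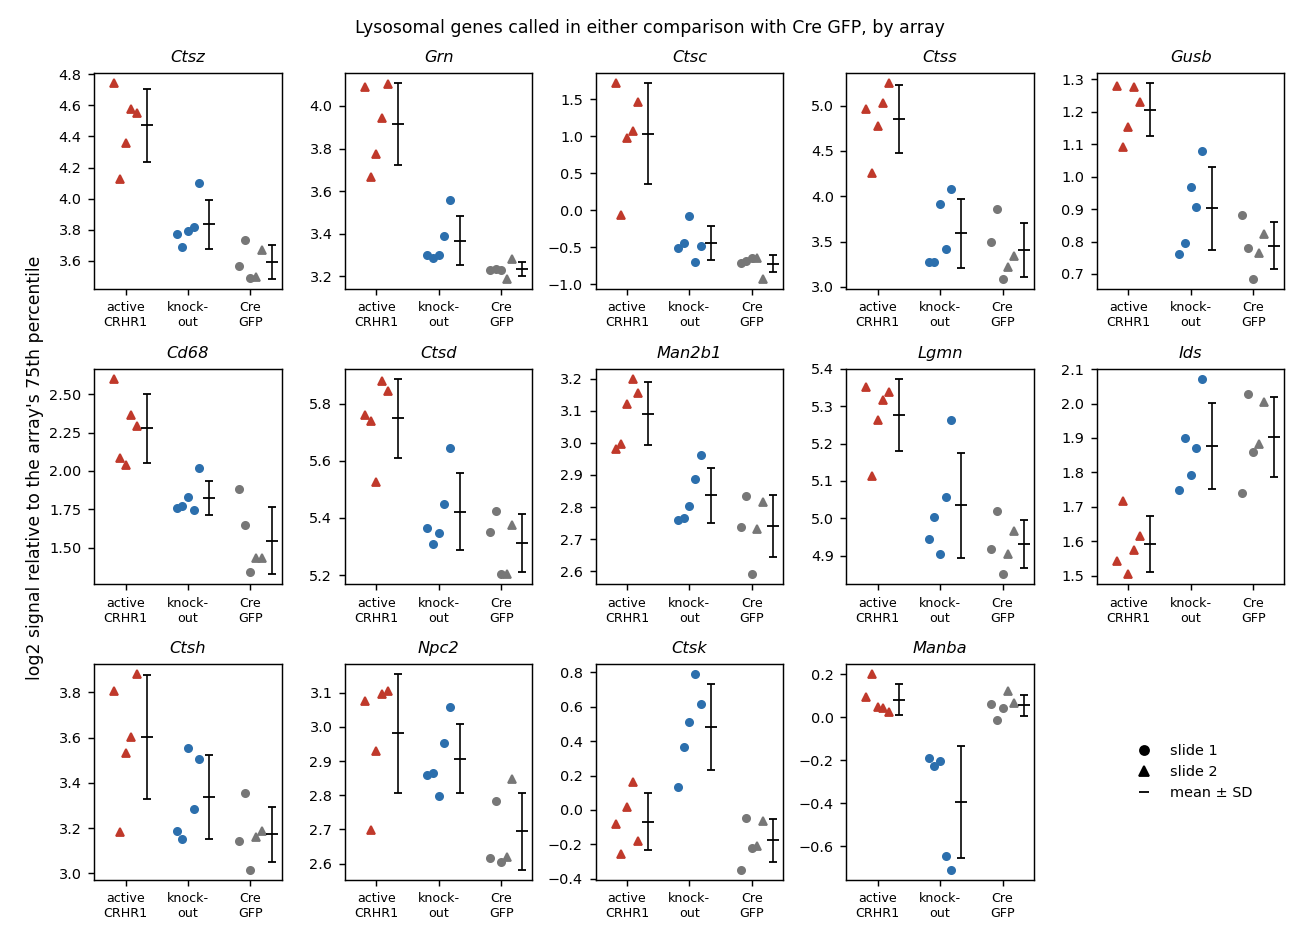
Level of the 14 genes called in either comparison with Cre GFP on each array, as log2 signal relative to the array's 75th percentile, with mean ± SD of the 5 arrays per group. Circles are arrays of slide 1 and triangles of slide 2; the axis of each panel has its own range. In 9 of the 11 genes that rose with active CRHR1, the lowest active CRHR1 array lay above every Cre GFP array; Ctsh and Npc2 are the exceptions.

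Within the active CRHR1 group, many of the genes that rose had the same arrays at their extremes. Array 2 was the lowest for 8 of these 11 genes, and arrays 1 and 5 were the highest for 5 and 4 of them. The same array 2 had the lowest summed signal of the 17 microglial markers, 203 times the 75th percentile against 209 to 257 on the other 4 active CRHR1 arrays. It also had the lowest sum of 10 T cell markers, 3.26 against 5.17 to 7.08. Low sums on array 2 were not particular to these lists. Its sums of monocyte and macrophage, B cell, vascular and ensheathing glia markers, 3.57, 0.239, 31.3 and 92.6, were also the lowest of the group. Its neuronal sum, 257, was the highest. Without active CRHR1 array 2, 15 of the 44 genes were called, and without Cre GFP array 5, 9 were.

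Markers of several cell types also differed between active CRHR1 and Cre GFP bulbs. For scale, 4.55% of all genes were called higher and 6.07% lower in active CRHR1 against Cre GFP bulbs. Sums over a list weigh the brightest probes most and serve only to compare arrays. The summed signal of the microglial markers was 203 to 257 in active CRHR1, 148 to 175 in knockout and 137 to 173 in Cre GFP bulbs, so that active CRHR1 stood clear of both. Of the 17 markers 9 rose, among them the complement gene C1qa by 1.56 and the calcium-binding protein gene Aif1 by 1.89, and 1, Fcrls, fell. P2ry12, a purinergic receptor of resting microglia, was not called. Of 12 genes of activated microglia 6 rose, led by the integrin gene Itgax at 2.82. Their summed signal was 346 to 414 in active CRHR1, 407 to 557 in knockout and 381 to 451 in Cre GFP bulbs, but Apoe alone, which was not called, made up 92.8% to 96.4% of it on every array. Without Apoe the other 11 genes summed to 18.5 to 24.9 in active CRHR1, 17.3 to 20.2 in knockout and 15.4 to 17.5 in Cre GFP bulbs, with no overlap between active CRHR1 and Cre GFP. Of 10 T cell markers 6 rose, with sums of 3.26 to 7.08 in active CRHR1, 3.35 to 4.58 in knockout and 3.21 to 4.03 in Cre GFP bulbs. Of 8 monocyte and macrophage markers 3 rose, with sums of 3.57 to 6.88 in active CRHR1, 3.95 to 5.14 in knockout and 3.39 to 3.91 in Cre GFP bulbs. Ccr2, a chemokine receptor of circulating monocytes, was above background on 4 arrays of the active CRHR1 group and 0 of the Cre GFP group, a difference of at least 3.60-fold (adjusted p = 0.0339), the Cre GFP level being bounded by the lowest signal above background on each array. The listed genes Ly6c2, Cd163 and Cd8b1 did not pass the detection filter, Cd8a was below background on all knockout arrays, and no other tested marker of these 4 lists was below background on all 5 arrays of a group. No neutrophil marker of 6 was called by limma, and 0 of them had an unadjusted p under 0.05. Of the 6 neuronal markers 4 fell, with sums of 214 to 257 in active CRHR1, 250 to 279 in knockout and 263 to 314 in Cre GFP bulbs. Of 10 granule cell markers 4 fell and of 8 oligodendrocyte markers 2 fell, 1 of 8 astrocyte markers rose and 1 fell, and 1 of 11 vascular and 1 of 3 B cell markers rose. None of the 6 mitral and tufted cell or 4 ensheathing glia markers was called by limma, with 2 and 3 at an unadjusted p under 0.05. With slide as a block the rises numbered 6 of the microglial, 3 of the activated microglial, 2 of the T cell and 1 of the monocyte and macrophage markers. The astrocyte and B cell lists had 1 rise each. The falls numbered 0 of the neuronal, 1 of the granule cell, 1 of the activated microglial and 2 of the oligodendrocyte markers. The part of these cell types in the lysosomal changes was not tested. In whole-bulb RNA, more cells of a type and more RNA per cell cannot be told apart.

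**Figure D3:**
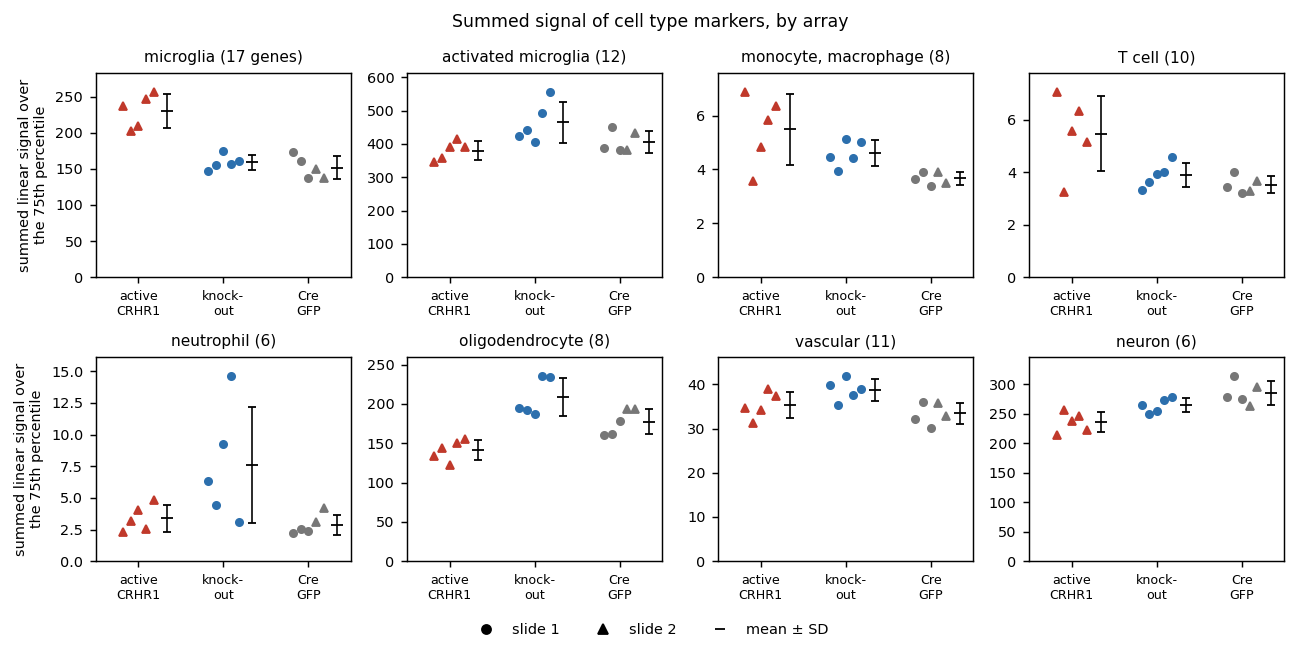
Summed linear signal, as multiples of the array's 75th percentile, of 8 cell type marker lists on each array, with mean ± SD of the 5 arrays per group; circles are slide 1 and triangles slide 2. The microglial sum is 203 to 257 in active CRHR1 bulbs and at most 175 elsewhere, while the neuronal sum is at most 257 in active CRHR1 and 250 to 314 elsewhere.

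Promoter sequences were set beside these changes because the lysosomal genes that TFEB is known to raise carry an E-box, CACGTG, within the longer CLEAR motif. The 250 bases before the annotated start were searched on both strands in RefSeq promoters of build GRCm38.p6, which held 39 of the 44 genes (not Ctsb, Ctsh, Galns, Asah1 or Npc1). CACGTG stood before 13 of the 39 genes, or 33.3%, against 6.86% of 27025 genes. It stood before 2 of the 10 genes with a sequence that rose in active CRHR1 bulbs, Lgmn and Ctsd, and before 11 of the other 29. The extended form TCACGTGA, which contains CACGTG, stood before Ctsa, Ctsd, Gla and Mcoln1, and before 0.907% of all genes. With a further G before it and C after it, the motif stood before 0 of the 39 and 0.270% of all genes. Stretches around the motif, with 30 bases on each side where the window allowed, are printed 5′ to 3′ on the strand of the gene with every CACGTG in capitals. The first pair belong to genes that rose in active CRHR1 against Cre GFP bulbs and the rest to genes not called in that comparison.
Ctsd: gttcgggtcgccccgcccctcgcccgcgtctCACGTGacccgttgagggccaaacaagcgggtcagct
Lgmn: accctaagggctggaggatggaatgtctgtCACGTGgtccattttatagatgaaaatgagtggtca
Mcoln1: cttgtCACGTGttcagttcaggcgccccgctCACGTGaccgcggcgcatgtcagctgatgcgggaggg
Ctsa: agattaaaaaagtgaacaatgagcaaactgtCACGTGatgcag
Lamp1: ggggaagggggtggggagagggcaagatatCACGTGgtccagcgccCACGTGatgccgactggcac
They lie at chr7:142387889-142387956 on the minus strand for Ctsd, chr12:102439106-102439171 on the minus strand for Lgmn, chr8:3500443-3500510 on the plus strand for Mcoln1, chr2:164833730-164833772 on the plus strand for Ctsa and chr8:13159070-13159135 on the plus strand for Lamp1. A pair of motifs known from genes of immune cells were searched in the same way. The core of the interferon-stimulated response element, GAAA repeated after any 2 bases, stood before Ctss and Lamp1, or 5.13% of the 39, and before 3.46% of all genes. GAGGAAGT, a form of the site of the myeloid factor PU.1, stood before Ctsc and Gla, also 5.13%, and before 2.79% of all genes. Each motif thus stood before 1 of the 10 genes that rose and 1 of the other 29. The stretches before Ctss and Ctsc, the genes with the largest rises among the 44, are shown with these motifs in capitals, that of Ctsc reading on the opposite strand.
Ctss: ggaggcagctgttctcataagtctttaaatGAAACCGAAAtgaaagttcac
Ctsc: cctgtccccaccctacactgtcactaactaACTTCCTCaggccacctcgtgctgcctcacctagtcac
These are at chr3:95526735-95526785 and chr7:88277904-88277971, both on the plus strand. A motif in these windows is a match of letters and no evidence of binding.

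Further genes of the lysosomal machinery were described as lists beside the 44. The lists were chosen with earlier results of these data known, so a share above that of all genes may partly reflect that choice. Of 38 further lysosomal enzymes and membrane proteins 4 rose and 1 fell, together 13.2% against 10.6% of all genes. Their median was 0.07, against -0.07 for all genes. Laptm5, a lysosomal protein of blood-derived cells, rose by 0.96 ± 0.22 (adjusted p = 0.0145), Man2b2 by 0.42 (adjusted p = 0.0311) and Scpep1 by 0.20 (adjusted p = 0.0481), while Laptm4b fell by 0.28 (adjusted p = 0.00795).

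Of 19 subunits and accessory proteins of the proton pump 5 fell and 1 rose, together 31.6% against 10.6% of all genes. The falls were those of Atp6v0d1, Atp6v0e2, Atp6v1a, Atp6v1b2 and Atp6v1c1, by 0.22 to 0.25, and the median of the list was -0.22, against -0.07 for all genes. Tcirg1 codes for the a3 subunit, known from osteoclasts and phagocytes, and rose by 0.72 ± 0.13 (adjusted p = 0.0035; 0.0198 under the slide block). Its levels were 1.81, 1.09, 1.35, 1.34 and 1.59 in active CRHR1, 0.73, 0.62, 0.80, 0.49 and 0.37 in knockout, and 0.96, 0.59, 0.76, 0.76 and 0.47 in Cre GFP bulbs, with no overlap. The list median stayed between -0.32 and -0.12 under the alternatives, but the 5 falls were not called with arrays centred on their median, with the authors' scaled values or with slide as a block, and Tcirg1 was.

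Of the 8 cathepsin inhibitors tested, 2 rose and 1 fell, together 37.5% against 10.6% of all genes. Cst7 had the largest change of all genes listed here. Cst7, cystatin F, which restrains cathepsin C and related proteases inside immune cells, had levels of 2.81, 1.46, 1.23, 2.53 and 2.45 in active CRHR1, -3.71, -3.21, -2.24, -3.16 and -1.29 in knockout, and -2.78, -2.55, -3.07, -3.96 and -4.23 in Cre GFP bulbs. The active CRHR1 arrays lay far above all others, and the change was 5.42 ± 0.47 (adjusted p = 7.46e-05). Serpina3g, a serpin that inhibits cysteine cathepsins in mice, rose by 3.72 ± 0.58 (adjusted p = 0.0013). Cst6 fell by 0.30 (adjusted p = 0.044), and the widely expressed Cst3 and Cstb, neither called, had changes of -0.12 and less than 0.01 in size.

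None of 9 genes of mannose 6-phosphate sorting was called by limma, with 2 at an unadjusted p under 0.05, and the receptor genes Igf2r and M6pr had changes of -0.04 and less than 0.01 in size. Of 15 genes of the TFEB family and of mTORC1, the kinase complex that holds TFEB in the cytoplasm, only Rraga was called, lower by 0.22 (adjusted p = 0.0196), while Tfe3, a close relative of Tfeb, had a change of 0.01. Of 21 autophagy genes Gabarapl2, Ulk2 and Vps18 fell, by 0.22 to 0.27, and none rose, so that 14.3% of the list was lower, against 6.07% of all genes. On 7 of the 21 every active CRHR1 array lay below every Cre GFP array, or 33.3%, against 7.81% of all genes. The list medians were -0.02 for sorting, -0.13 for the TFEB family and mTORC1 and -0.13 for autophagy, against -0.07 for all genes. None of these 4 falls was called with slide as a block or with arrays centred on their median.

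**Figure D4:**
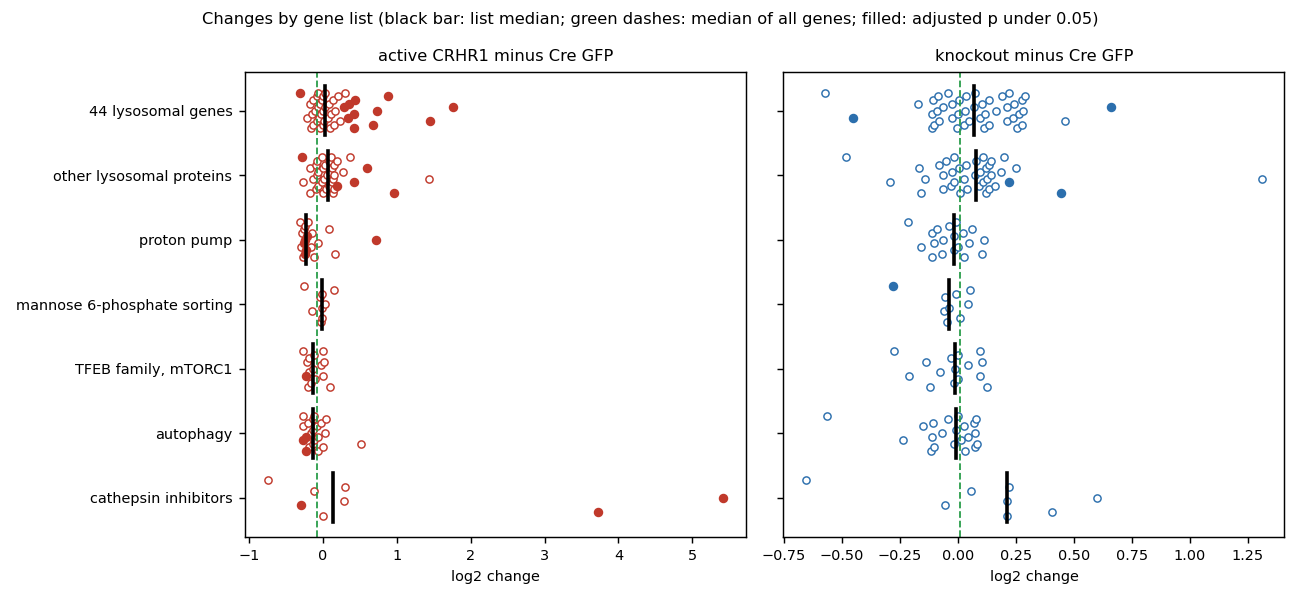
Log2 change of each gene in 7 lists in active CRHR1 (left) and knockout (right) against Cre GFP bulbs; the panels have separate axes. Filled points passed the adjusted p threshold, black bars are list medians and the green dashed line is the median of all genes. In the left panel the proton pump list has a median of -0.22, with Tcirg1 alone at 0.72, and Cst7 and Serpina3g stand at 5.42 and 3.72.

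The knockout against Cre GFP comparison addresses lower CRH signalling, with the strain difference named above, and uses the same 5 Cre GFP arrays as the comparison before it. Few of these genes were called: 1 of 44 rose and 1 fell, together 2 genes against 4.07% of all genes, 2.41% higher and 1.65% lower, a share near that of all genes. On 3 genes (Arsb, Ctsk and Grn) every knockout array lay above every Cre GFP array and on 1 (Manba) below, against 3.39% and 2.56% of all genes, or 5.95% in either direction. The median change was 0.07 over the 44 genes and 0.01 over all genes. Ctsk, cathepsin K, best known as the collagen-cutting protease of osteoclasts, had levels of 0.13, 0.36, 0.51, 0.79 and 0.62 in knockout bulbs, -0.08, -0.25, 0.01, 0.17 and -0.18 in active CRHR1 bulbs, and -0.35, -0.04, -0.22, -0.21 and -0.07 in Cre GFP bulbs. All knockout arrays lay above all Cre GFP arrays, and 4 of them above all active CRHR1 arrays. Ctsk rose by 0.66 ± 0.12, or 1.58-fold (adjusted p = 0.0073; 0.0247 under the slide block; chromosome 3, 95313165 to 95313224, mm9). Manba, the beta-mannosidase gene, had levels of -0.19, -0.23, -0.20, -0.65 and -0.71 in knockout bulbs, 0.10, 0.20, 0.05, 0.04 and 0.03 in active CRHR1 bulbs, and 0.06, -0.01, 0.04, 0.12 and 0.07 in Cre GFP bulbs. Knockout arrays 4 and 5 were well below the other 3, and all 5 were below every other array. The fall was 0.45 ± 0.10 (adjusted p = 0.023), and it missed the threshold under the slide block (adjusted p = 0.088) and without knockout array 4, Cre GFP array 3 or Cre GFP array 4.

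The 11 genes that rose with active CRHR1 had changes of 0.09 to 0.28 in the knockout by their brightest probes. Second probes gave 0.63 for Cd68, -0.11 for Ctsd, 0.23 for Ctsc and 0.15 for Gusb. None of the 11 genes was called by limma, and 3 had an unadjusted p under 0.05. Grn, with a change of 0.13, was the gene among them whose knockout and Cre GFP arrays did not overlap. The other 42 genes, not called, lay between -0.57 (Idua) and 0.46 (Sgsh), the genes described above for their levels on knockout array 5. Tfeb had a change of 0.27 ± 0.09 (adjusted p = 0.108) and Lamp1 one of 0.22 ± 0.09 (adjusted p = 0.179). Among the further lists, Gm2a, the activator of ganglioside breakdown, rose by 0.22 (adjusted p = 0.0423), Man2b2 by 0.44 (adjusted p = 0.0407), and Gga3, a sorting adaptor, fell by 0.28 (adjusted p = 0.0345). No gene of the proton pump, TFEB and mTORC1, autophagy or cathepsin inhibitor lists was called by limma, with 2, 2, 2 and 1 genes at an unadjusted p under 0.05. None of the 17 microglial markers was called, with 4 at an unadjusted p under 0.05, and 5 of 11 vascular markers rose, with sums of 35.3 to 41.9 in knockout and 30.2 to 36.1 in Cre GFP bulbs. Of 4 ensheathing glia markers 2 rose (Ngfr and Npy), with sums of 131 to 168 in knockout and 105 to 144 in Cre GFP bulbs. Of 8 astrocyte markers Aqp4 and Slc1a3 rose and Gfap fell, Mbp among 8 oligodendrocyte and Cd79b among 3 B cell markers rose, and Etv1 among 10 granule cell and Snap25 among 6 neuronal markers fell. The 6 neutrophil markers had a median change of 1.44 and sums of 3.13 to 14.6 in knockout and 2.21 to 4.18 in Cre GFP bulbs, and limma called 0 of them, with 5 at an unadjusted p under 0.05. Limma also called 0 of 12 activated microglial markers, with 6 at an unadjusted p under 0.05, 0 of 8 monocyte and macrophage markers, with 5, and 0 of the T cell and mitral cell markers, with 0. With slide as a block Ctsk alone of the 44 genes remained called, against 1.89% of all genes. The part of any of these cell types in the Ctsk and Manba changes was not tested. Over all genes 566 were called higher and 387 lower, so that 59.4% of the calls were higher, and with median centring, which left Manba alone of the 44 called, 35.1% were.

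Active CRHR1 and knockout bulbs, the groups that the labels rank as high and low in CRH signalling, were set against each other directly, as the test of whether a change against Cre GFP differed between them. In this comparison 18 of 44 genes were called against 28% of all genes, 11 higher (9.68% of all genes) and 7 lower (18.3% of all genes). Active CRHR1 arrays lay above all knockout arrays on 8 genes and below on 4, against 6.65% and 12.7% of all genes, or 19.4% in either direction. Of the 11 genes that rose against Cre GFP, 9 were also higher than in the knockout, from Ctsc at 1.48 ± 0.25 (adjusted p = 0.00141) and Ctss at 1.26 ± 0.21 (adjusted p = 0.00132) to Lgmn at 0.24 ± 0.07 (adjusted p = 0.0252), whose call was lost in 7 of 28 alternatives. Gusb, among these 9, was at 0.30, but a second probe gave -0.18 and the call was lost with the mean over probes. Ctsh and Npc2 were not called, with 0.26 and 0.07. The other higher genes were Manba at 0.48 (adjusted p = 0.00488) and Gla, alpha-galactosidase A, at 0.26 (adjusted p = 0.0408). The call of Gla was lost in 13 of 28 alternatives, among them 8 of the 15 array omissions.

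The 7 lower genes were Ctsk at -0.55, Arsb at -0.40, Tfeb at -0.33, Cd63 at -0.32, Ids at -0.29, Lamp1 at -0.28 and Lipa, the lysosomal acid lipase, at -0.18. A second Arsb probe gave -0.15. Tfeb (adjusted p = 0.0167) and Lamp1 (adjusted p = 0.0329) were called in neither comparison with Cre GFP, where the changes in active CRHR1 and in knockout were -0.07 and 0.27 for Tfeb and -0.06 and 0.22 for Lamp1. Both calls were lost with arrays centred on their median and with the authors' scaled values, and that of Lamp1 also under quantile normalization and in 6 of the 15 array omissions. The call of Lipa was lost in 17 of 28 alternatives, 10 of them array omissions. The 2 groups share no slide, and with slide as a block 0 of the 44 were called by limma, against 3.38% of all genes, while 16 had an unadjusted p under 0.05. Median centring left 7 calls, 5 higher and 2 lower, and quantile normalization gave 21, 16 higher and 5 lower. The authors' scaled values left 8 among the 40 genes tested there, 6 higher and 2 lower. Over all genes 2270 were higher and 4295 lower, and with median centring 1586 and 1592.

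Among the further lists, 8 of 38 other lysosomal genes were higher and 4 lower in active CRHR1 than in knockout bulbs. Together they were 31.6% of the list, near the 28% of all genes. The list median was 0.02 against -0.08 for all genes. Of the 19 proton pump genes 1 was higher and 7 were lower, and of the 15 genes of the TFEB family and mTORC1 5 were lower. Of the 21 autophagy genes 1 was higher and 8 were lower. The calls made up 42.1%, 33.3% and 42.9% of these lists. Over all genes 9.68% were higher and 18.3% lower. Cst7 was again far higher, by 4.82 (adjusted p = 5.5e-05), and Tcirg1 by 0.83 (adjusted p = 0.00097).

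Cell type markers differed between these groups as well, where 9.68% of all genes were called higher and 18.3% lower. In active CRHR1 against knockout bulbs 7 of 17 microglial markers were higher and 3, Fcrls, Gpr34 and P2ry12, were lower, and 3 of 10 T cell markers were higher. Of 12 activated microglial markers 4 were higher and 2, Apoe and Igf1, were lower, and of 8 monocyte and macrophage markers 1 was higher and 1 lower. Lower were 6 of 8 oligodendrocyte markers, all 4 ensheathing glia markers, 4 of 6 neuronal, 4 of 11 vascular and 3 of 10 granule cell markers, while Snap25 among the neuronal markers was higher. Of the 8 astrocyte markers 1 was higher and 2 were lower. Limma called 0 of 6 neutrophil markers, with 4 at an unadjusted p under 0.05, 0 of 6 mitral cell markers, with 2, and 0 of 3 B cell markers, with 0. With slide as a block 5 microglial and 1 T cell marker were higher, and 3 oligodendrocyte, 3 ensheathing glia and 1 vascular marker were lower, with 0 neuronal and 0 granule cell markers called. Of the activated microglial markers 2 were then higher and 1 lower. In the monocyte and macrophage list and in the astrocyte list 1 marker each was higher and 1 lower. The part of these cell types in the higher and lower lysosomal genes was not tested.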

How the data were processed

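Each of 15 mice gave 1 array. The scanner files hold each spot's intensity and its flags for detection, saturation and outliers. Per the file headers, the intensity was computed with Agilent Feature Extraction 10.7.3.1, by subtracting background and removing spatial trends on each array. The authors' series values are a ratio, found by comparison with the deposited scanner values to be the processed signal over the median of the array's 59305 spots that are not controls, with column medians of 0.899 to 0.935. Control and outlier-flagged spots were left out and 0 spots were saturated. From the intensity, log2 minus the array's 75th percentile was taken, and probes well above background on at least 4 of 5 arrays of a group were kept (33978 of 55681). RefSeq names replaced array names through accessions for 27509 probes and changed the symbol of 2017.

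Groups came from the sample titles. All 3 comparisons were fitted over 15 arrays with limma 3.58.1 in R 4.3.3 with data.table version 1.17.8, and the fit was tested on simulated data. Summaries and figures were made with pandas 2.3.3 and matplotlib 3.10.9 in Python 3.11.15. The alternatives were other scalings, filters, probe rules, slide blocks, a replicate block, array weights, an intensity trend, a threshold of 0.01 and leaving out each array. The threshold of 0.01 enters the counts of called genes only. It is not among the alternatives over which the call of a single gene was tallied. The 44 genes, the gene and marker lists and the tests were chosen with earlier results of these data known. Per-array levels are given for genes called in either comparison with Cre GFP and for Tfeb, Mcoln1 and Lamp1, and up to 4 called genes of each further list and 3 of each marker list are named by smallest p. Scpep1, Atp6v1a, Atp6v0e2, Igf2r, M6pr, Tfe3, Cst3, Cstb, Aif1, Fcrls, P2ry12, Gpr34 and Apoe were named after their values were seen. Probe coordinates are mm9, per the file headers. Without a genome of that build, the exon or UTR position of the probes was not determined here. The values of 1 gene of the further lists are not reported here.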

Additional observations from a re-analysis of the deposited data

Results flagged for a closer look

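Among 132 sets of 5 arrays, 1 for each of the 44 genes in each group, 5 held an array whose gap to its nearest neighbour took up more of the set's range than Dixon's critical value of 0.71. Chance flags about 1 in 20 sets, or 6.6 of 132. Of these, 3 were knockout array 5 as the highest: Sgsh, at 5.72 with the next array at 3.85 (gap 0.740 of the range), Hexa, at 3.68 with the next at 3.34 (0.729), and Scarb2, at 1.13 with the next at 0.98 (0.720). The other two were Cre GFP arrays at the low end. Ctsc on Cre GFP array 5 was at -0.92 with the next at -0.71 (0.762), and Npc1 on Cre GFP array 2 was at -0.43 with the next at -0.17 (0.765).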

How the results depend on the processing

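Of the 44 genes, the 12 called in active CRHR1 against Cre GFP bulbs became 5 with arrays centred on their median, 6 with the authors' scaled values, 7 with slide as a block and 1 within slide 2, and 9 to 15 with 1 array left out, the lowest without Cre GFP array 5 and the highest without active CRHR1 array 2. The 2 called in knockout against Cre GFP became 1 with median centring, the authors' values, only the groups compared, slide as a block or a threshold of 0.01, 9 with array weights, 0 within slide 1 (limma, 8 at an unadjusted p under 0.05), and 1 to 2 with 1 array left out. The 18 called in active CRHR1 against knockout became 7 with median centring, 8 with the authors' values or a threshold of 0.01, 0 with slide as a block (limma, 16 at an unadjusted p under 0.05), and 14 to 19 with 1 array left out. The cause was not tested, except that within a slide there are fewer arrays. Counts with the authors' values are of the 40 genes tested there. With the replicate number as a block the counts were 10, 2 and 16. Same-numbered arrays deviated together no more than others, with correlations of -0.23 to 0.36 over 15 pairs of which 3 exceeded 0.1, and 4 of 15 arrays correlated best with their own number, so the numbers were not taken as pairs.

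Changes of sign were met in genes that were not called. Lamp1 in active CRHR1 against Cre GFP was 0.061 under quantile normalization, and Mcoln1 was 0.11 with the mean over probes. Mcoln1 in active CRHR1 against knockout was 0.077 under quantile normalization, 0.40 with the mean over probes, 0.013 with array weights, and between -0.097 and 0.023 with 1 array left out, the highest without knockout array 5.

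Over all genes, the 2489 called in active CRHR1 against Cre GFP were 1075 with median centring, 1343 with the authors' values, 1563 without a filter on dim probes, 6226 with array weights, 1059 with slide as a block, 414 within slide 2 and 846 at a threshold of 0.01. The 953 in knockout against Cre GFP were 305, 455, 545, 4059, 444, 159 (within slide 1) and 230 under the same settings, 565 with only the groups compared, 627 with the replicate block and 1468 with quantile normalization. The 6565 in active CRHR1 against knockout were 3178 with median centring, 3748 with the authors' values, 793 with slide as a block and 2170 at a threshold of 0.01. All 44 genes were above background on every array, so that detection did not limit them in the scanner values. The authors' values allowed tests of 40 of the 44 and of 21186 genes in all.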
